A study of Glycine max with 12 samples.

Results

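Among the 47095 genes counted in soybean (Glycine max) seeds, 118 stood apart in the GmZF351 overexpressor alone by the rule used here, 16 of them higher and 102 lower than in every other genotype. GmZF351 is known as a tandem CCCH zinc finger protein that activates genes of seed oil synthesis, and its overexpression raises seed oil. A transcription factor that is expressed far above its usual level can change genes well beyond the pathway it is known for, directly or through other regulators. A developing soybean seed at the same time fills with oil and storage protein, so gene expression also changes with its progress through maturation.

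The 12 libraries, made from seeds of the stage named H3 in the labels, were 3 each from the wild type Jack (JACK in the labels) and from transgenic soybean for GmZF351, GmZF392 and GmNFYA. The labels give neither age, treatment, promoter nor plants per library. They do not say whether the 3 libraries of a genotype are separate plants, so the spread between them may be technical. The libraries of each overexpressor share 1 code in their titles, so a genotype may be represented by 1 line, and effects of that line and of its transgene cannot be told apart. The loci of the zinc finger genes were assigned from knowledge of the study, because the tables used here do not describe them.

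The rule worked on CPM (a gene's count scaled to its library total) and on group means with 0.05 CPM added. A gene was kept if its GmZF351 mean differed by 1.5-fold or more from each of the 3 other means in the same direction. All 3 GmZF351 libraries had to lie beyond all 9 others, the highest group mean had to reach 2 CPM, and the GmZF392 and GmNFYA means had to be within 1.5-fold of the wild type. The GmZF351 gene itself was left out. These conditions used every library and every contrast that involves these genes, so their differences are described here and not tested. A gene's place in the set does not mean that the other overexpressors left it unchanged, since each of those was allowed to differ from the wild type by up to 1.5-fold. In bulk seed, fewer cells of a type and less RNA per cell cannot be told apart.

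Library totals ran from 17809547 to 22652420 counted fragments, and 3 counts, the most that a count of 0 allows, correspond to 0.132 to 0.168 CPM (counting error only). The level of GmZF351 (locus Glyma.06G290100, minus strand of chromosome 6, 47496646 to 47498247) was 900.0, 799 and 1015 CPM in its overexpressor. It was 21.7, 17.4 and 17.8 CPM in the wild type, 39, 41.6 and 41.4 CPM in the GmZF392 overexpressor and 29.7, 26.2 and 24.9 CPM in the GmNFYA overexpressor, so its libraries went with their label. Counts do not separate the transgene's fragments from those of the endogenous gene. All 15 markers of storage protein and embryo maturation found in the table were detected in every library, which goes with the seed label. Their summed level was 22467 to 26087 CPM in the GmZF351 libraries against 12745 to 15217 CPM in the wild type, 19749 to 22934 CPM in the GmZF392 and 20670.5 to 21330.1 CPM in the GmNFYA overexpressor. SSTP-1 stood at 7046 to 15870 CPM and KTI3 at 2451 to 5121 CPM over the 12 libraries, so this sum mostly follows these genes. The median of the 15 was at log2 1.27 in GmZF351 against the wild type in the edgeR fit given below. There 8 were higher at an adjusted p under 0.05 and none was lower, where 1.13% of all tested genes were called higher. The 7 seed coat markers included ANR2, at 0 in some libraries and under 0.34 CPM in all. They summed to 3977 to 5035 CPM in the GmZF351 libraries against 3929.5 to 4287 CPM in the wild type. The sum was 3838 to 4283 CPM in the GmZF392 and 3551 to 3666 CPM in the GmNFYA libraries. PRX2 alone stood at 2733 to 4269 CPM over the 12 libraries, so this sum mostly follows 1 gene. In the edgeR fit given below, the median seed coat marker was at log2 -0.12 in GmZF351 against the wild type. Of the 6 tested, 1 was lower at an adjusted p under 0.05 and none was higher. The 4 green tissue markers summed to 1226 to 1557 CPM against 1760.3 to 1994 CPM in the wild type, and they were below the wild type in both other overexpressors too, at 1356 to 1677 CPM (GmZF392) and 1207 to 1685 CPM (GmNFYA). VSPA, the vegetative storage marker found, stood at 24.9 to 33.3 CPM in the GmZF351 and 56 to 72.7 CPM in the GmZF392 libraries, below the wild type at 93.1 to 107 CPM, and at 114 to 121 CPM in those of GmNFYA. The part of these marker differences in the results below was not tested. GmZF351 library 2 stood apart: its scaling factor by the trimmed mean of M-values (TMM, a ratio to the other libraries that is not driven by a few abundant genes) was 0.884, against 1.01 and 1.01 for libraries 1 and 3. Of 29202 genes with a group mean of 2 CPM or more, the median was -0.22 against the wild-type mean on the log2 CPM scale in that library.

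The lower genes were many and their differences moderate. The ratio between the GmZF351 mean and the nearest of the 3 other means ran from 1.5 to 3.29-fold with a median of 1.64-fold, and 10 of 102 genes reached 2-fold. For the 16 higher genes it ran from 1.5 to 1.8-fold with a median of 1.62-fold, and none reached 2-fold. Expression was mostly low. The highest group mean was under 10 CPM for 61 lower and 8 higher genes, and it reached 50 CPM for 9 lower and 1 higher gene. All 118 genes passed the filter on low counts of the edgeR fit across 34252 genes. In that fit 51 lower and 4 higher genes had an adjusted p under 0.05 against the wild type, where 1.05% of all tested genes were called lower and 1.13% higher. The rule used this contrast, so nothing is read from the counts. They were 34, 33 and 34 lower and 1, 1 and 2 higher genes without wild-type library 1, 2 or 3, and 35, 38 and 32 lower and 4, 2 and 1 higher without GmZF351 library 1, 2 or 3. Calls among all tested genes became fewer in these smaller fits too. Both directions together, the full fit called 2.17% of them. Removing a wild-type library left 1.13 to 1.28% called, and removing a GmZF351 library left 1.16 to 1.66%. The 3 GmZF351 libraries lay below all 9 others for 2.18% of tested genes and above all of them for 0.671%.

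**Figure D1:**
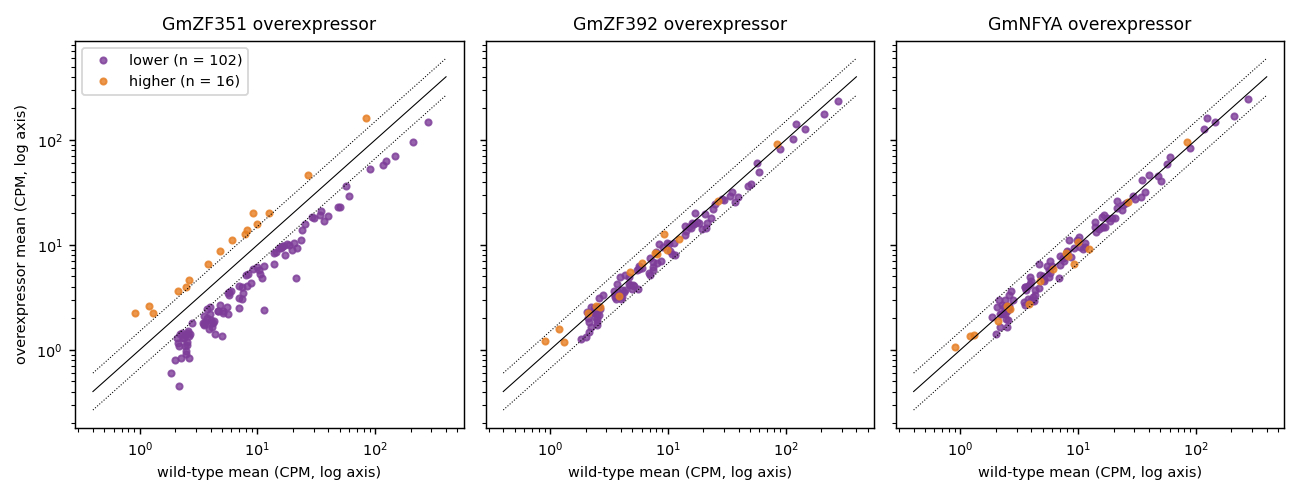
Mean CPM (n = 3, both axes logarithmic) of the 102 lower and 16 higher genes in each overexpressor against the wild type, with a solid line at equality and dotted lines at 1.5-fold. By the rule, the genes lie outside the dotted lines in the GmZF351 panel and within them in the others.

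The excess of lower genes depends in part on how libraries are scaled. With TMM-scaled CPM the rule gave 93 genes, 20 higher and 73 lower, of which 85 were among the 118. With DESeq2 size factors it gave 92, 20 higher and 72 lower. The same rule applied to the GmZF392 overexpressor gave 122 genes, 114 higher and 8 lower, and to the GmNFYA overexpressor 143 genes, 36 higher and 107 lower, each without its own overexpressed gene. With TMM these were 92 higher and 12 lower, and 37 higher and 106 lower. Lower genes were therefore the larger part in the GmZF351 and GmNFYA sets and the smaller part in the GmZF392 set under both scalings; these splits share wild-type libraries and were not tested against each other.

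Within the sets, the GmZF351 libraries differed among themselves. The median lower gene was at -0.91, -1.17 and -0.83 in libraries 1 to 3 on the log2 CPM scale relative to the wild-type mean, and library 2 was the lowest of the 3 for 64 of 102 genes. Over all genes at the level the same medians were -0.03, -0.22 and -0.02. Library 2 was thus lowest in both. With all libraries scaled by TMM, 71 of the 102 lower genes still met the rule, and 70 did with DESeq2 size factors. The part of the scaling of library 2 alone in the lower set was not tested. The median higher gene was at 0.82, 0.94 and 0.73, again farthest from the wild type in library 2. Among the other genotypes, 2 libraries lay on the side away from GmZF351. The median higher gene was at -0.29 in wild-type library 1 and -0.43 in GmNFYA library 1, and the median lower gene at 0.15 and 0.19 in the same libraries. In the remaining wild-type and GmNFYA libraries the median lower gene ran from -0.17 to -0.08, and in the GmZF392 libraries from -0.20 to -0.11.

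**Figure D2:**
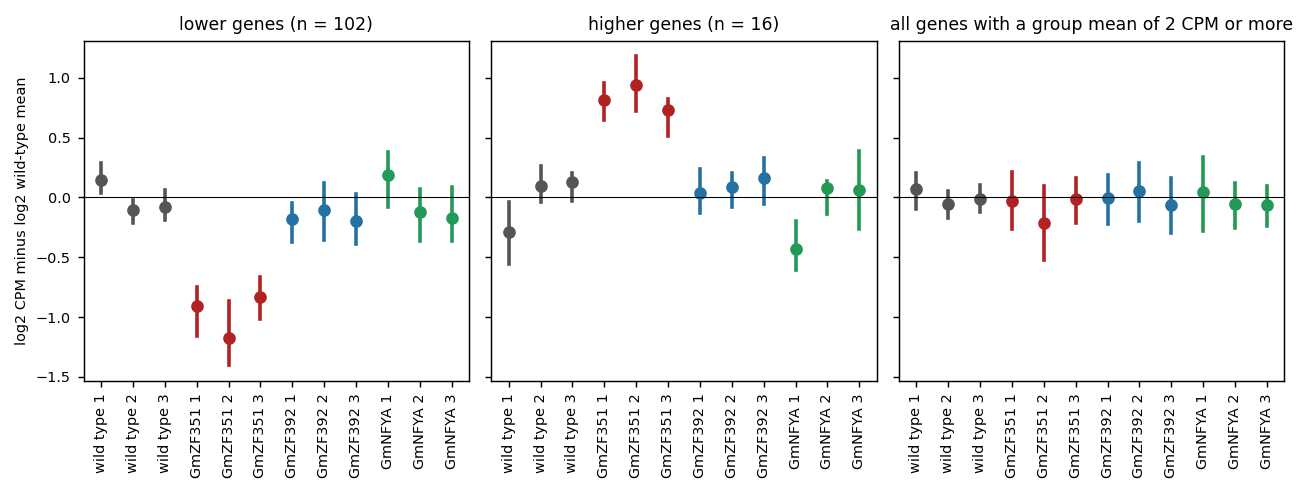
Log2 CPM minus the log2 wild-type mean in each library (points, medians over genes; bars, interquartile range over genes) for the 102 lower genes, the 16 higher genes and all 29202 genes with a group mean of 2 CPM or more. The GmZF351 libraries are apart in the first 2 panels by the rule, and library 2 is the lowest in the third.

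The lower genes were not all at the wild-type level in the other zinc finger overexpressor. The GmZF392 mean was below the wild-type mean for 74 of 102 lower genes, where 49.2% of all genes at the level had it below, and GmZF392 was the nearest of the other means for 54. The GmNFYA mean was below the wild type for 50 of 102 genes (53.4% of all genes at the level). The median fitted difference of the lower genes from the wild type was log2 -0.91 in the GmZF351 overexpressor, -0.15 in the GmZF392 and 0.02 in the GmNFYA overexpressor, beside 0.01 over all tested genes in the first. For the higher genes these were 0.87, 0.06 and -0.02. All these differences share the wild-type libraries and fall under limits set by the rule, so they are descriptions.

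Genes chosen again by the rule could be set against libraries that had no part in that choice. The rule was applied again without the 4 libraries of 1 replicate number, and the left-out GmZF351 library was then compared with the left-out libraries of the other genotypes. The direction against the left-out wild type held for most genes chosen, and the size was smaller. That share was lowest for genes chosen as higher without the libraries numbered 3, at 61.8% (all genes, 49.9%). A left-out library may share its line and its plants with the libraries used. The comparison therefore speaks only to repeats within the libraries of a genotype. Wild-type library 1 and GmNFYA library 1 both lay on the side away from GmZF351 in the sets above. Left-out libraries of the same number may thus not be independent of each other. Genes of 1 library are not replicates, so the numbers below are descriptions. Without the libraries numbered 1, the rule chose 194 genes as lower, and the left-out GmZF351 library was below the left-out wild-type library for 155 of them, where 56.3% of all genes at the level were. It was below all 3 left-out libraries of the other genotypes for 128, or 66.0%, against 31.1% of all genes. Without those numbered 2, 96 genes were chosen as lower. The left-out library was below the left-out wild type for 86 (all genes, 65.1%) and below all 3 for 73, or 76.0% (all genes, 47.5%). This is the library with the low scaling factor. Without those numbered 3, 319 genes were chosen, of which 254 were below the left-out wild type (all genes, 50.1%) and 169, or 53.0%, below all 3 (all genes, 18.7%). The median log2 CPM difference from the wild type of the genes chosen as lower was -0.92, -0.93 and -0.83 in the libraries used to choose them. In the left-out libraries it was -0.47, -0.69 and -0.34.

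Genes chosen as higher were fewer. There were 26, 29 and 89 of them, and the left-out GmZF351 library was above the left-out wild type for 20, 27 and 55 (all genes, 43.7%, 34.8% and 49.9%). It was above all 3 left-out libraries for 16, 20 and 35, or 61.5%, 69.0% and 39.3% (all genes, 20.5%, 20.0% and 24.7%). Their median log2 CPM difference was 0.76, 0.80 and 0.92 in the libraries used and 0.45, 0.41 and 0.17 in those left out. These repeated choices differ from the 118 genes. Of the genes chosen as lower, 65, 52 and 84 were among the 102, and of those chosen as higher 6, 8 and 13 among the 16. The fold changes given for single genes below come from the libraries that chose them, and the left-out libraries here gave smaller ones.

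**Figure D3:**
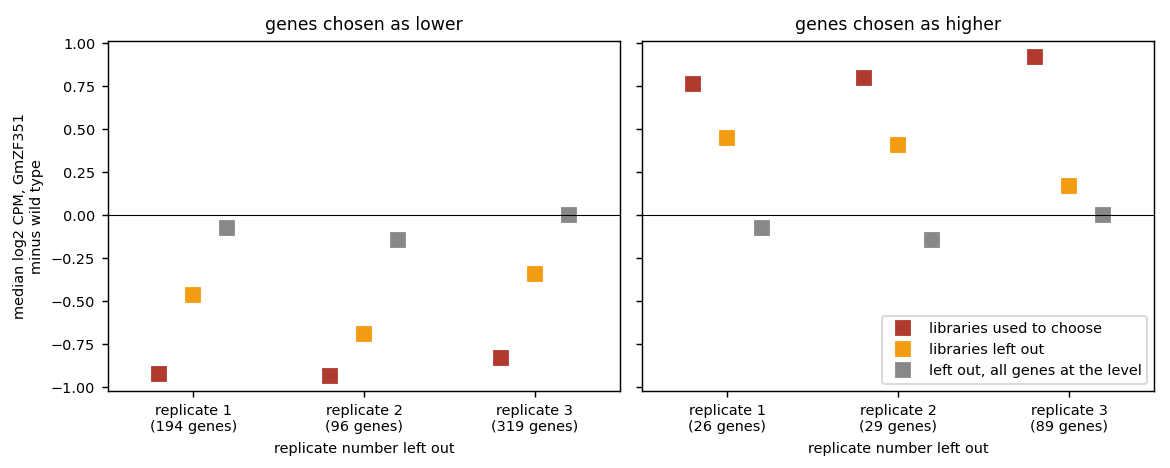
Median log2 CPM difference between GmZF351 and wild-type libraries for genes chosen by the rule without the libraries of 1 replicate number, in the libraries used to choose, in the left-out libraries and over all genes at the level in the left-out libraries. In both directions the left-out medians lie between those of the libraries used and those of all genes.

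Of the 102 lower genes, 6 carried a RefSeq symbol and 97 could be paired with a RefSeq gene. They are given first by the gene they name, and then by size. None of the genes with a symbol, lower or higher, was called against the wild type in the edgeR fit. Their adjusted p (quasi-likelihood F-test) ran from 0.063 for ZPR3B to 0.378 for GST3. OAS-TL2 (Glyma.20G148100, chromosome 20, 38622999 to 38631895, minus strand) encodes an O-acetylserine (thiol) lyase, the enzyme that completes cysteine synthesis. It stood at 2.58, 3.46 and 1.6 CPM in GmZF351 libraries 1 to 3 and at 5.14, 5.52 and 5.75 CPM in wild-type libraries 1 to 3. The GmZF392 libraries had 5.05, 5.45 and 6.78 CPM and the GmNFYA libraries 6.29, 6.86 and 5.86 CPM. All 3 GmZF351 libraries were low, and they spread more widely than the wild type. The mean was 2.55 ± 0.930 CPM (SD, n = 3) against 5.47 ± 0.311 CPM, 2.13-fold lower (log2 -1.01, SE 0.26). GST3 (Glyma.15G252200, chromosome 15, 50033043 to 50035381, minus strand), for a glutathione S-transferase, an enzyme that conjugates glutathione to reactive compounds, stood at 0.574, 1.28 and 1.6 CPM in the GmZF351 libraries. The wild-type libraries had 1.92, 1.85 and 2.57 CPM, the GmZF392 libraries 1.72, 2.02 and 2.31 CPM and the GmNFYA libraries 2.26, 3.27 and 3.39 CPM. GmZF351 library 1 was the lowest, while library 3 lay close below the lowest GmZF392 library (log2 -0.80, SE 0.35 against the wild type). Without library 1 the fitted difference was log2 -0.45.

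PM16 (Glyma.17G155000, chromosome 17, 13053321 to 13054540, plus strand), of a series of genes for soybean seed maturation proteins, stood at 6.02, 5.8 and 6.67 CPM in the GmZF351 libraries and 8.15, 10.9 and 10.4 CPM in the wild type. It stood at 10.9, 9.32 and 10.9 CPM in the GmZF392 and 8.28, 11.5 and 13.5 CPM in the GmNFYA libraries (log2 -0.61, SE 0.21 for GmZF351 against the wild type). The GmZF351 libraries lay close together, and wild-type library 1 and GmNFYA library 1 were the nearest to them. NAC51 (Glyma.07G229100, chromosome 7, 41234338 to 41236262, minus strand), of the NAC family of plant transcription factors, stood at 1.72, 2.02 and 2.08 CPM in the GmZF351 libraries against 4.57, 4.94 and 2.68 CPM in the wild type. The GmZF392 libraries had 2.47, 3.37 and 3.77 CPM and those of GmNFYA 2.37, 3.48 and 3.0 CPM. Its nearest other mean, that of GmNFYA, was 1.51-fold higher, near the threshold, while the wild type was 2.07-fold higher (log2 -1.0, SE 0.28). Both other overexpressors were thus nearer to GmZF351 than the wild type was. IQD25 (Glyma.07G204000, chromosome 7, 37646559 to 37649712, plus strand), of a family of calmodulin-binding proteins with an IQ motif, stood at 1.48, 1.12 and 1.28 CPM against 2.65, 2.47 and 2.07 CPM in the wild type (log2 -0.82, SE 0.24). It stood at 1.97, 2.58 and 1.62 CPM in the GmZF392 and 2.26, 2.2 and 2.18 CPM in the GmNFYA libraries. CYP50 (Glyma.09G095400, chromosome 9, 13537869 to 13555887, minus strand) stood at 5.79, 4.52 and 5.17 CPM against 8.35, 8.34 and 7.32 CPM in the wild type (log2 -0.56, SE 0.16), with 8.73, 9.77 and 7.11 CPM in the GmZF392 and 10.5, 8.24 and 7.41 CPM in the GmNFYA libraries. For both genes GmZF392 library 3 was the nearest to GmZF351.

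**Figure D4:**
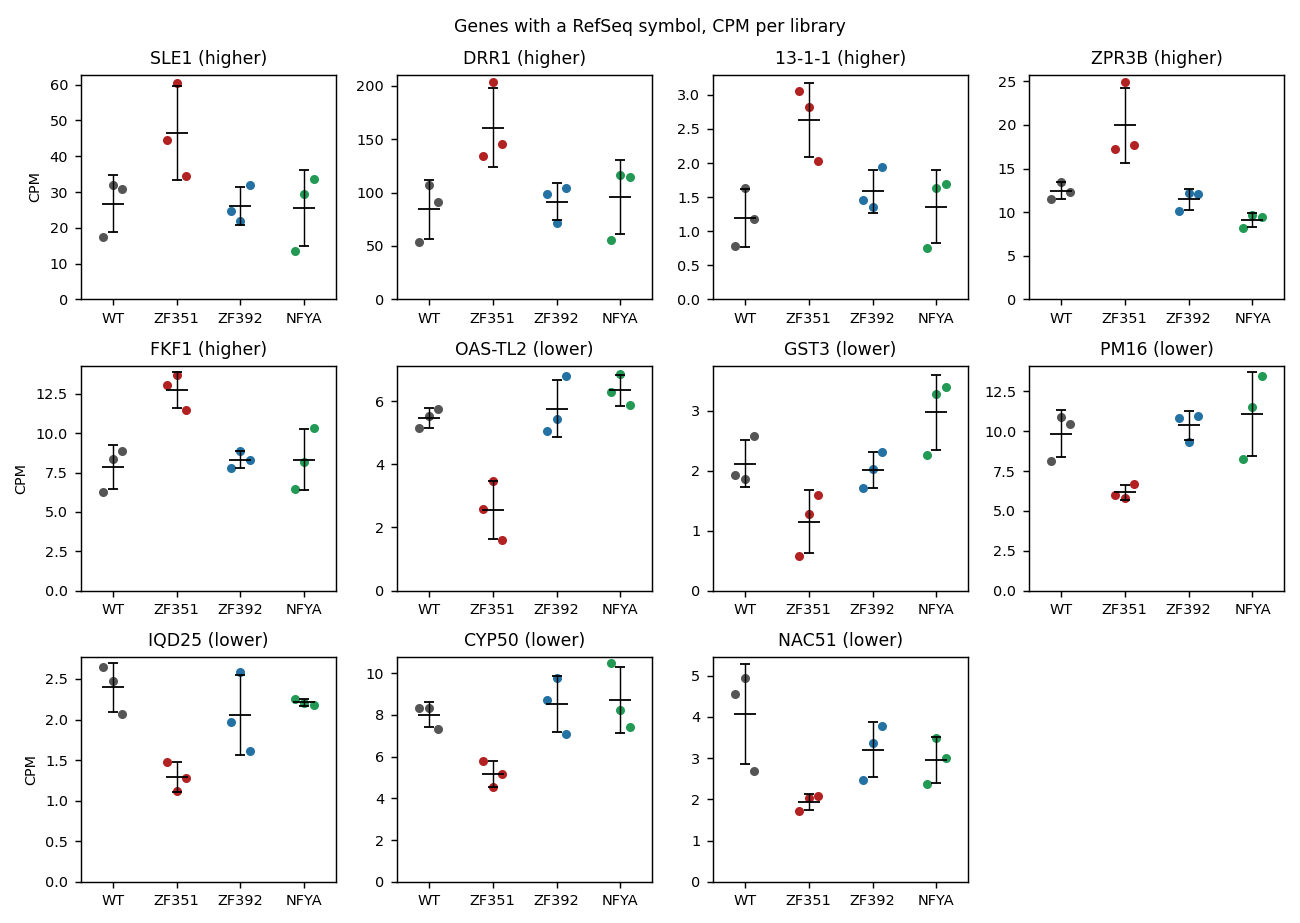
CPM per library (points) with mean and SD (n = 3, bars) for the 11 genes that carry a RefSeq symbol, 5 higher and 6 lower, in the wild type (WT) and the overexpressors of GmZF351, GmZF392 and GmNFYA. The GmZF351 points do not overlap with the others, by the rule, and wild-type library 1 and GmNFYA library 1 (leftmost points) are the lowest of their groups for all 5 higher genes.

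The lower gene with the largest ratio to the nearest other mean was Glyma.15G238600 (chromosome 15, 45675325 to 45678792, plus strand), which carries no symbol. It stood at 2.77, 1.12 and 3.36 CPM in the GmZF351 libraries and 14.6, 8.3 and 11.4 CPM in the wild type, 4.65-fold lower in the mean (log2 -2.17, SE 0.32). In the GmZF392 and GmNFYA libraries it stood at 8.28, 9.6 and 6.3 CPM and 13.7, 7.57 and 7.51 CPM. GmZF351 library 2 was the lowest, and the nearest other library was the third of GmZF392. Glyma.11G239300 (chromosome 11, 38251068 to 38254202, plus strand) had the next largest ratio, 3.07-fold, at a low level. It stood at 0.335, 0.532 and 0.480 CPM in the GmZF351 libraries, 2.59, 1.85 and 2.01 CPM in the wild type, 1.26, 1.63 and 1.56 CPM in the GmZF392 and 3.33, 1.53 and 1.65 CPM in the GmNFYA libraries (log2 -2.17, SE 0.36 against the wild type). The GmZF351 values rest on 7, 10 and 9 counted fragments. Glyma.09G080100 (chromosome 9, 9173093 to 9177067, minus strand) was expressed more highly and its GmZF392 level was intermediate. It stood at 4.11, 6.7 and 3.79 CPM in the GmZF351 and 15.1, 12.8 and 15.5 CPM in the GmZF392 libraries. The GmNFYA libraries had 22, 27 and 29.6 CPM, and those of the wild type 24.4, 20.6 and 18.8 CPM. The fitted difference from the wild type was log2 -2.04, SE 0.24 in the GmZF351 and log2 -0.56, SE 0.23 in the GmZF392 overexpressor.

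Glyma.03G202200 (chromosome 3, 42213032 to 42215715, minus strand) is listed in RefSeq under the synonyms GmALMT1 and GmALMT7, of a family named for aluminium-activated malate transporters. It stood at 1.15, 0.479 and 0.907 CPM in the GmZF351 libraries against 3.68, 2.07 and 2.07 CPM in the wild type (log2 -1.54, SE 0.32), and at 1.87, 2.3 and 2.31 CPM and 3.01, 2.3 and 1.99 CPM in the GmZF392 and GmNFYA libraries. Wild-type library 1 was the highest of the 12. Glyma.03G014000 (chromosome 3, 1393533 to 1406029, plus strand) stood at 2.06, 0.904 and 1.12 CPM against 5.19, 4.46 and 5.36 CPM in the wild type (log2 -1.80, SE 0.30), with 4.24, 4.6 and 2.53 CPM in the GmZF392 and 6.67, 4.76 and 3.73 CPM in the GmNFYA libraries. The highest GmZF351 library and the lowest GmZF392 library were neighbours in this order. Of the 10 genes with the largest ratios, the remaining 4 without a symbol were Glyma.12G239900, Glyma.08G312000, Glyma.07G114200 and Glyma.02G136200. Their ratios to the nearest other mean were 2.31, 2.05, 2.05 and 2.02-fold, and their GmZF351 means 1.41, 1.57, 0.598 and 3.02 CPM. Their wild-type means were 4.33, 3.87, 1.84 and 7.44 CPM. GmZF392 was below the wild type for each of the 4.

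**Figure D5:**
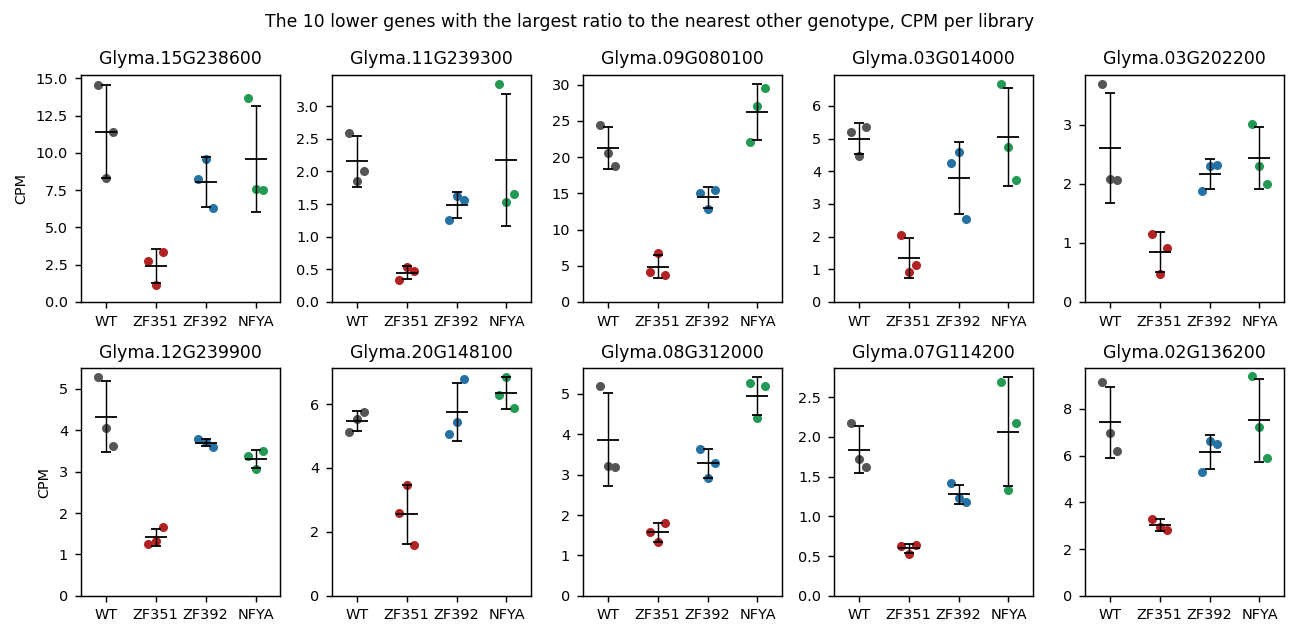
CPM per library (points) with mean and SD (n = 3, bars) for the 10 lower genes with the largest ratio between the GmZF351 mean and the nearest other mean. The wild-type means run from 1.84 to 21.3 CPM and the GmZF351 means from 0.449 to 4.87 CPM.

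The 3 most abundant lower genes had smaller ratios than the 10 above. Glyma.02G307700 (chromosome 2, 50009222 to 50011430, plus strand) stood at 146, 133 and 163 CPM in the GmZF351 libraries and 307, 262 and 266 CPM in the wild type (log2 -0.85, SE 0.13). Its GmZF392 and GmNFYA libraries had 241, 239.9 and 222 CPM and 279.7, 223 and 229.9 CPM, all between those of GmZF351 and the highest of the wild type. Glyma.14G005300 (chromosome 14, 438886 to 441021, minus strand) stood at 92.9, 85.6 and 109.7 CPM against 243, 198 and 193 CPM in the wild type (log2 -1.06, SE 0.14), and at 173, 185 and 172 CPM and 196, 148 and 163 CPM in the GmZF392 and GmNFYA libraries. Both other overexpressors had means below the wild type, by log2 -0.26, SE 0.14 and log2 -0.30, SE 0.14. Glyma.15G123800 (chromosome 15, 9777662 to 9780380, minus strand) stood at 67.9, 53.4 and 67.5 CPM against 128, 119 and 124 CPM in the wild type (log2 -0.91, SE 0.14). Here the GmZF392 and GmNFYA means, 141 ± 21.2 and 161 ± 20.3 CPM, were above that of the wild type, 124 ± 4.25 CPM.

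Of the 16 higher genes, 5 carried a symbol, and none of these 5 was called against the wild type in the edgeR fit. SLE1 (Glyma.18G203500, chromosome 18, 48751465 to 48752487, minus strand) encodes a late embryogenesis abundant protein, of a class that accumulates in maturing seeds. It stood at 44.5, 60.5 and 34.6 CPM in the GmZF351 libraries, 17.5, 31.9 and 30.8 CPM in the wild type, 24.6, 21.8 and 32 CPM in the GmZF392 and 13.4, 29.5 and 33.7 CPM in the GmNFYA libraries. The means were 46.5 ± 13.1 and 26.7 ± 8.02 CPM in GmZF351 and the wild type (log2 0.88, SE 0.36), and without GmZF351 library 2 the difference was log2 0.57. The third GmZF351 library was close above the third GmNFYA library, and the wild-type and GmNFYA libraries numbered 1 were low. DRR1 (Glyma.11G150400, chromosome 11, 17986366 to 17987324, plus strand), named for a disease resistance response, was the most abundant higher gene. It stood at 134, 203 and 145 CPM in the GmZF351 libraries and 53.9, 107 and 91 CPM in the wild type (log2 1.01, SE 0.34). Its GmZF392 and GmNFYA libraries had 98.2, 71.7 and 104 CPM and 56, 117 and 115 CPM. As for SLE1, GmZF351 library 2 was the highest and the libraries numbered 1 of the wild type and GmNFYA were the lowest.

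ZPR3B (Glyma.10G071100, chromosome 10, 7121714 to 7123821, plus strand) encodes a little zipper protein, which in Arabidopsis binds and blocks class III homeodomain leucine zipper factors. It stood at 17.3, 25 and 17.7 CPM in the GmZF351 libraries, 11.5, 13.5 and 12.3 CPM in the wild type, 10.1, 12.2 and 12.1 CPM in the GmZF392 and 8.22, 9.67 and 9.4 CPM in the GmNFYA libraries (log2 0.77, SE 0.19 against the wild type). GmZF351 library 2 stood above the other two, and without it the difference was log2 0.50. FKF1 (Glyma.05G239400, chromosome 5, 41552756 to 41556357, minus strand) encodes a blue-light receptor with an F-box that in Arabidopsis promotes flowering in long days. It stood at 13.1, 13.7 and 11.5 CPM in the GmZF351 libraries and 6.28, 8.39 and 8.88 CPM in the wild type (log2 0.77, SE 0.21), and at 7.77, 8.87 and 8.29 CPM and 6.45, 8.19 and 10.3 CPM in the GmZF392 and GmNFYA libraries. The third GmNFYA library was the nearest to GmZF351. Glyma.18G042100 (chromosome 18, 3531723 to 3533404, minus strand), whose RefSeq symbol is 13-1-1, stood at 3.06, 2.82 and 2.03 CPM against 0.778, 1.63 and 1.17 CPM in the wild type (log2 1.20, SE 0.37), with 1.46, 1.35 and 1.94 CPM in the GmZF392 and 0.753, 1.64 and 1.7 CPM in the GmNFYA libraries. Among the higher genes without a symbol, Glyma.04G236600 (chromosome 4, 49324193 to 49330072, minus strand) differed between all 4 genotypes. It stood at 22.1, 17.1 and 21.7 CPM in the GmZF351 and 12, 13.2 and 12.8 CPM in the GmZF392 libraries. The GmNFYA libraries had 6.77, 6.5 and 6.3 CPM, and those of the wild type 9.76, 9.54 and 8.43 CPM. No 2 of these groups overlapped, and the fitted differences from the wild type were log2 1.20, SE 0.12, log2 0.44, SE 0.12 and log2 -0.48, SE 0.13 in the order GmZF351, GmZF392, GmNFYA. Glyma.02G014300 had the largest ratio to the nearest other mean, 1.8-fold, at 2.2, 2.13 and 2.4 CPM in the GmZF351 libraries and 1.14, 0.795 and 0.782 CPM in the wild type. The other 4 of the 10 higher genes with the largest ratios were Glyma.19G126400, Glyma.12G159800, Glyma.20G157001 and Glyma.09G023500, with ratios of 1.74, 1.72, 1.69 and 1.68-fold and GmZF351 means of 4.63 ± 0.831, 6.6 ± 0.477, 13.8 ± 2.32 and 11.2 ± 4.97 CPM. Their wild-type means were 2.64 ± 0.865, 3.82 ± 0.230, 8.12 ± 2.33 and 6.05 ± 0.918 CPM. For Glyma.09G023500, GmZF351 library 2 stood at 16.9 CPM, apart from libraries 1 and 3 at 7.99 and 8.69 CPM, and GmNFYA library 3 was close below these at 7.90 CPM. Its fitted difference from the wild type was log2 0.99, SE 0.33, and log2 0.48 without library 2.

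The threshold separates genes with nearly the same values. Just inside it among the higher genes were Glyma.20G145000 and Glyma.12G206800, with ratios of 1.503 and 1.511 to the nearest other mean, and just outside were Glyma.04G067200 and Glyma.02G273800, with 1.498 and 1.498. Their GmZF351 means were 15.9, 3.99, 2.7 and 40.6 CPM. Among the lower genes Glyma.11G110300 and Glyma.09G052700 were just inside, with 1.5 and 1.503, and Glyma.17G196700 and Glyma.18G156900 just outside, with 1.497 and 1.498. Their GmZF351 means were 17.9, 2.46, 7.09 and 2.32 CPM. The 80 lower genes outside the naming rule, Glyma.06G271500 among them, had wild-type means of 2.0 to 146 CPM and GmZF351 means of 0.805 to 70.7 CPM. Their fitted log2 differences from the wild type ran from -1.40 to -0.55. The 2 higher genes outside it had log2 differences of 0.83 and 0.85 at GmZF351 means of 2.22 and 3.6 CPM.

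The genes were spread over the genome. The lower genes lay on all 20 chromosomes, at most 10 of them on 1 (chromosome 9), and the higher genes on 11, at most 4 on 1 (chromosome 18). On chromosome 6, which carries GmZF351, there were 6, and the nearest, Glyma.06G271500, lay 1.76 Mb away. There were 2 pairs of neighbours within 100 kb of each other. On chromosome 12, Glyma.12G239900 and Glyma.12G240600 (chromosome 12, 41361871 to 41365774, plus strand) were 51.3 kb apart with 5 genes between them, and both were lower. Glyma.12G240600 stood at 23.3, 23.3 and 21.6 CPM in the GmZF351 libraries and 51.6, 48.4 and 43.9 CPM in the wild type (log2 -1.0, SE 0.12), with 34.8, 38.1 and 36.3 CPM in the GmZF392 libraries in between. On chromosome 18, Glyma.18G272300, which was higher at 8.69 ± 0.492 CPM against 4.78 ± 0.664 CPM in the wild type (log2 0.94, SE 0.19), and Glyma.18G273200, which was lower at 4.03 ± 0.712 against 8.08 ± 1.06 CPM (log2 -0.93, SE 0.17), were 63.0 kb apart with 7 genes between them. These neighbours therefore differed in opposite directions. The median exon length was 1866 bp in the lower and 1640 bp in the higher genes, beside 1937 bp over all genes at the level. With those genes split by exon length into 3 groups of equal size, the short, middle and long groups held 34, 45 and 23 of the lower and 6, 6 and 4 of the higher genes.

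Of 11 gene lists formed by RefSeq symbol, the late embryogenesis list held 1 lower gene, PM16, the list of transcription factors 1 lower gene, NAC51, and the other 9 none. Together this was 2 of 427 tested list genes, or 0.468%, beside 0.345% of all tested genes, so nothing is read from the small number. The rule by itself leaves out genes that moved together in the overexpressors. In the edgeR fit (adjusted p under 0.05 against the wild type, 2.17% of tested genes called in both directions), the numbers that rose and fell in the GmZF351 overexpressor were 6 and 0 of 13 (median log2 1.17) storage proteins and allergens, 3 and 0 of 5 (median log2 1.08) lipoxygenases and 3 and 0 of 22 (median log2 0.40) late embryogenesis genes. They were 1 and 1 of 27 (median log2 0.00) desaturases and genes of fatty acid synthesis, 2 and 0 of 7 (median log2 0.06) genes of triacylglycerol and oil bodies, 1 and 3 of 26 (median log2 -0.01) sugar transporters and 0 and 3 of 14 (median log2 -0.25) heat shock genes. For flavonoid and phenylpropanoid genes they were 2 and 1 of 47 (median log2 -0.11), for transcription factors 7 and 2 of 245 (median log2 0.06), for hormone genes 1 and 0 of 17 (median log2 0.17) and for defence genes 0 and 0 of 4 (median log2 0.19). The median over all tested genes was 0.01. A median counts each gene alike, while a sum follows the abundant genes. The lipoxygenases summed to 1205 to 1600 CPM in the GmZF351 libraries against 1559 to 1854 CPM in the wild type, so their total did not rise. The triacylglycerol and oil body genes summed to 3220 to 3599 CPM against 846 to 1796 CPM. That sum was 2945 to 3011 CPM in the GmZF392 and 1706 to 2688 CPM in the GmNFYA libraries. It mostly follows 2 oleosin genes, P89 and P91, which stood at 334 to 1585 and 365 to 2035 CPM over the 12 libraries. Both are also among the markers of storage protein and embryo maturation, and the median gene of the list hardly differed. A list holds only genes with such a symbol, and SLE1, also a late embryogenesis gene, is outside the pattern used for that list.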

How the data were processed

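RNA of 12 soybean seed libraries was measured by sequencing after TRIzol extraction, per the labels. Raw counts and exon lengths by gene were deposited by the authors; per the file headers, featureCounts 2.0.1 counted paired-end fragments over the exons of Gmax_508_Wm82.a4.v1. No strand, multimapping or overlap setting appears in that header, so counts of close copies and antisense partners are uncertain. HISAT2 and DESeq2 are also named, with no version, per the submitters' processing notes. Positions are those of the deposited table. RefSeq symbols (Glycine_max_v4.0) were assigned where spans overlapped by at least 50% of their union, for 38292 genes (81.3%). CPM used column sums and group means used 0.05 CPM as pseudocount. Fitted log2 differences come from edgeR 4.0.16 in R 4.3.3 (TMM, filterByExpr with minimum count 10 and total 15, robust quasi-likelihood F-test, 1 coefficient per genotype, Benjamini-Hochberg 0.05); SE is the log2 difference divided by the square root of F. The edgeR fit was tested on simulated counts. Named were genes with a symbol, the 10 higher and 10 lower with the largest ratio to the nearest other mean, the 3 most abundant in each direction, neighbours within 100 kb and those next to the threshold. The genes and lists were chosen with earlier results of these data known. Alternatives were TMM and DESeq2 1.42.0 scaling, pseudocount, fold and level thresholds, filter, DESeq2's Wald test, a replicate block, exon-length offsets and left-out libraries. Sequences were not used here.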

Additional observations from a re-analysis of the deposited data

How the results depend on the processing

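The number of genes that meet the rule was 118 (16 higher, 102 lower), and it was 93 (20 and 73) with TMM scaling, 92 (20 and 72) with DESeq2 size factors, 95 (17 and 78) with a pseudocount of 0.5 CPM and 141 (20 and 121) at a level of 1 CPM. It fell to 73 (10 and 63) at 5 CPM and to 10 (0 and 10) with a 2-fold threshold. Leaving out libraries eased the condition that groups do not overlap and also changed the group means, so genes could enter or leave the set. Without all libraries of 1 replicate number or without 1 GmZF351 library the number ran from 123 to 408, with 22 to 89 higher and 96 to 319 lower. It was 307, 123 and 269 without GmZF351 library 1, 2 or 3, of which 105, 84 and 112 were among the 118. The percent of genes chosen as lower without the libraries numbered 3 for which the left-out GmZF351 library lay below all 3 others was 53.0 and became 60.9 with TMM scaling; the cause was not tested. The edgeR fit called 744 genes in the GmZF351 overexpressor against the wild type, 732 with DESeq2 size factors, 687 without a filter and 645 with the replicate block, but 1331 with exon-length offsets and 1296 with the DESeq2 Wald test (cause not tested). Without 1 library of either group the calls ran from 392 to 575. Same-numbered GmZF351 and wild-type libraries had correlations of deviations of -0.05, 0.38 and -0.12, so the replicate numbers were not taken as pairing. Between differently numbered libraries they ran from -0.27 to 0.31. The highest of these were 0.31 for GmZF351 library 1 with wild-type library 3 and 0.30 for GmZF351 library 3 with wild-type library 1. Among values of single named genes under these alternatives, 402 kept direction and side of the threshold, 33 lost and 16 gained the call, and none reversed. These values include GmZF351 itself, and the other genes were chosen with all GmZF351 libraries beyond those of the other genotypes. A reversal was thus hardly possible, and nothing is read from its absence. Low counts limit genes near 2 CPM most.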
